A study of Homo sapiens with 12 samples.

Results

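The genes described here are 50 genes of the chaperone and heat shock system, out of 61906 genes counted. They were chosen by symbol, as named members of the HSP70, HSP90, DNAJ, chaperonin and prefoldin groups with their cofactors and the heat shock factors HSF1 and HSF2. All 50 were found in both count tables, and 49 had enough reads to be tested in each experiment, the exception being HSPA1A. Of the 50, HSPA9, HSPD1, HSPE1, TRAP1 and CLPB encode proteins known to work in mitochondria, so the set is not purely cytosolic. RNA was sequenced from MOLM-14, a human acute myeloid leukemia cell line, in 2 experiments of 6 libraries each. In the first, cells received a lentivirus by spinoculation carrying a control shRNA (shControl) or an shRNA against the RNA helicase DDX5 (shDDX5), and were collected 96 hours after infection. The second exposed cells to 0.1% DMSO or to RX-5902 at 100 nM for 6 hours, RX-5902 being a compound directed at DDX5 in its phosphorylated form. All 4 groups consisted of 3 libraries labelled as biological replicates, and the experiments shared no control library. The labels do not say whether replicates were separate cultures, so p-values measure the spread between these libraries. The labels name 1 cell line, 1 targeting and 1 control shRNA, and the experiments differed in agent, delivery and time together, so these cannot be told apart.

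Chaperones bind proteins that are not yet folded, or that have lost their fold, and keep them from clumping. HSP70 proteins take up such chains with J-domain proteins, which bring the client and start ATP hydrolysis, and with nucleotide exchange factors such as the BAG and HSP110 proteins, which free it again. HSP90 receives part of these clients through STIP1 and matures kinases and steroid receptors with further cochaperones, while prefoldin hands actin and tubulin to the ring-shaped chaperonin TRiC. Many of these genes are driven by the factor HSF1, which is held back by chaperones in resting cells and binds repeated nGAAn units, the heat shock element, when clients accumulate. Leukemia cells are known to rely on HSP90 for mutated kinases such as FLT3.

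Promoter sequence was available in RefSeq (GRCh38.p14) for 45 of the 50 genes, taken as the 250 bases just before 1 annotated start per gene. In some genes, such as DNAJB6, HSPD1 and DNAJB1, that start lay inside the span counted for the gene. Other starts were not searched, so a window without a pair does not speak for them. The promoter set used here held no entry for CCT6A, FKBP4, HSF1, HSPA14 and PFDN2. Each window was searched for paired heat shock units, written GAANNTTC or TTCNNGAA, both of which read the same on either strand, so neighbouring pairs can overlap by a shared unit. At least 1 pair was present in 10 of the 45 windows (22.2%), against 11.7% of all 27305 promoter windows of that length. A run of 3 or more alternating units was present in 3 of the 45 (6.67%), those of CHORDC1, HSPA8 and DNAJB6, against 0.439% of all windows (120 windows). The CCAAT box, searched as CCAAT and as ATTGG, was in 13 of the 45 (28.9%) and in 33.0% of all windows. These letter matches are descriptions and not measured binding sites. The windows shown are those 3, that of the inducible HSP70 gene HSPA1B, and those of BAG3 and DNAJB2, the 2 genes called higher in both experiments, in which no pair was found. The positions are CHORDC1 chr11:90223050-90223299 (reverse strand), HSPA8 chr11:123062137-123062386 (reverse strand), DNAJB6 chr7:157336754-157337003 (forward strand), HSPA1B chr6:31827488-31827737 (forward strand), BAG3 chr10:119651130-119651379 (forward strand) and DNAJB2 chr2:219279116-219279365 (forward strand). Sequences run 5′ to 3′ towards the start of the gene, and capitals mark the heat shock units.
CHORDC1: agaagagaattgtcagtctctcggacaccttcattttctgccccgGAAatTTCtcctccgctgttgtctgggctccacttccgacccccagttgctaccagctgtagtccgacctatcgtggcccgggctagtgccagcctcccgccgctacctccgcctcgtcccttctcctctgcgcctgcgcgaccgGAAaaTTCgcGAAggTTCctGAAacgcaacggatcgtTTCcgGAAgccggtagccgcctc
HSPA8: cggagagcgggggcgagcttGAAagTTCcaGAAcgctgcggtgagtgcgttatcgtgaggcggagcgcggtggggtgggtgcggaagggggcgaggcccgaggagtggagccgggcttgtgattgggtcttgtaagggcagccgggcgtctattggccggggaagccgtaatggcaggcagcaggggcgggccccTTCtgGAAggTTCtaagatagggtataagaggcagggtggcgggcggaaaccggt
DNAJB6: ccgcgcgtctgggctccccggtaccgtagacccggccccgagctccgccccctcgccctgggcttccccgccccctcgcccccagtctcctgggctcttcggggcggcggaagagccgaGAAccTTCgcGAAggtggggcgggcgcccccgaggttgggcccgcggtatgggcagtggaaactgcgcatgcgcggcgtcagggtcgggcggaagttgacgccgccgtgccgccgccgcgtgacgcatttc
HSPA1B: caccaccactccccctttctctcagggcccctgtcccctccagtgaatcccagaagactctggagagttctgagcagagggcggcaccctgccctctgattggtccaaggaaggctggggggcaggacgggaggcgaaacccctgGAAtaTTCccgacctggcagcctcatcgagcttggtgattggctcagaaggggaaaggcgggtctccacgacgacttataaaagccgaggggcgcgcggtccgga
BAG3: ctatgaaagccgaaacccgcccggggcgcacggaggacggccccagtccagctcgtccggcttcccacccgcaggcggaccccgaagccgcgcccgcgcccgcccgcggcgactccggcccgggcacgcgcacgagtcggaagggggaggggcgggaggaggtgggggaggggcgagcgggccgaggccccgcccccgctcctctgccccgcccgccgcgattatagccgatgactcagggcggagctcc
DNAJB2: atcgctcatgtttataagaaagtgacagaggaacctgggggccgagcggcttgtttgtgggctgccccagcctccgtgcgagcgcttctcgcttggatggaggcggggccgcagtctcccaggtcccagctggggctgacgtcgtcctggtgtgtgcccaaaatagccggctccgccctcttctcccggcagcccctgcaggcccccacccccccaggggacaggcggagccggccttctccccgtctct

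CHORDC1 held 5 alternating units in a row close to its start, and HSPA8 and DNAJB6 held 3. These 3 genes did not change alike. CHORDC1 fell in both experiments, HSPA8 was called lower with RX-5902 and, with shDDX5, just without shDDX5 replicate 1, and DNAJB6 was called lower with shDDX5 only. Of the 33 genes with a window that were called lower with RX-5902, 8 (24.2%) had at least 1 pair, and of the 18 called lower with shDDX5, 3 (16.7%) had one. Among those not called, 1 of 8 (12.5%) had a pair with RX-5902 and 4 of 18 (22.2%) with shDDX5. Among those called higher, 0 of 3 had a pair with RX-5902 and 2 of 8 (25%) with shDDX5. The share over all 45 windows was 22.2%, and differences between these small groups were not tested.

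Libraries held 17603589 to 19674098 counts in the knockdown experiment and 20264250 to 20367575 in the compound experiment. DDX5 itself stood at 755, 718 and 730 CPM in shControl and at 159, 164 and 161 CPM in shDDX5 (CPM is counts relative to library size, scaled by TMM factors within an experiment). It was 4.55-fold lower with the shRNA (adjusted p = 3.44e-06) and 1.24-fold higher with RX-5902 (adjusted p = 1.47e-08). shDDX5 replicate 1 stood apart from replicates 2 and 3, with a chi-square per gene of 52.5 and 52.7 against 1.76 to 6.62 in every other pair of replicates, and with 10.3% of its counts from mitochondrially encoded genes against 5.19 to 8.09% elsewhere. Member calls with shDDX5 that change without it are given both ways. The 8 myeloid markers summed to 4131 to 4472 CPM in shControl, 13295 to 14728 in shDDX5, 1402 to 1451 in DMSO and 1218 to 1237 in RX-5902. LYZ, the lysozyme gene, made up most of the knockdown sums, with 3203 to 3581 CPM in shControl and 12364 to 13761 in shDDX5. CD33, SPI1 and MPO were also above all controls in every shDDX5 library, MPO at 68.6 to 74.2 CPM against 38.0 to 39.7. CEBPA overlapped. FLT3, HOXA9 and MEIS1 were below all controls in every shDDX5 library. FLT3 stood at 257 to 278 CPM against 378 to 390, and MEIS1 at 2.77 to 3.29 against 18.5 to 21.8. In every RX-5902 library SPI1, HOXA9 and MEIS1 were above all DMSO libraries, and CD33, CEBPA, LYZ, MPO and FLT3 below them. The part of these markers in the chaperone results was not tested. Markers of other cells were low, with HBB, HBA1, MS4A1, CD3G, DCN and LUM at 0 counts in all 12 libraries. Of the T cell list only TRAC had counts in the compound experiment, at 50.7 to 53.4 CPM in RX-5902 against 20.5 to 21.9 in DMSO. The fibroblast list reached 3.52 to 6.06 CPM in shDDX5 against 0.591 to 0.747 in shControl, nearly all of it COL1A1. Their part was likewise not tested.

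In the control groups the set was led by few genes. HSP90AB1, the constitutive cytosolic HSP90, was the highest in both control groups, at 2931 ± 97.4 TPM in shControl and 5257 ± 41.5 TPM in DMSO (TPM is length-normalised abundance from the deposited gene lengths, mean ± SD, n = 3). HSPA8, the constitutive HSP70, came next with 1334 ± 36.2 and 2931 ± 41.1 TPM, and then HSP90AA1, the stress-inducible HSP90, with 762 ± 11.4 and 1929 ± 92.9 TPM. These 3 genes made up 30.6 to 44.4% of the summed CPM of the 50 genes in every library. All 8 TRiC subunits stood between 351 and 571 TPM in shControl and between 524 and 862 TPM in DMSO. At the low end were DNAJB2 with 8.27 ± 0.130 and 4.65 ± 0.484 TPM and PFDN5 with 8.57 ± 0.196 and 6.46 ± 0.280 TPM. PFDN5 exons share 1048 of 4078 bases with another gene on the same strand, so its level is uncertain. The control groups were not alike. Mean TPM was higher in DMSO than in shControl in 41 of 49 members and in 8629 of all 15380 genes compared. The median ratio of DMSO to shControl was 1.38 over these members and 1.06 over all genes compared. Among the 49 members that ratio ran from 0.563 for DNAJB2 to 4.23 for HSPA1B. It was not tested, and the control groups differed in delivery and time together.

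**Figure D1:**
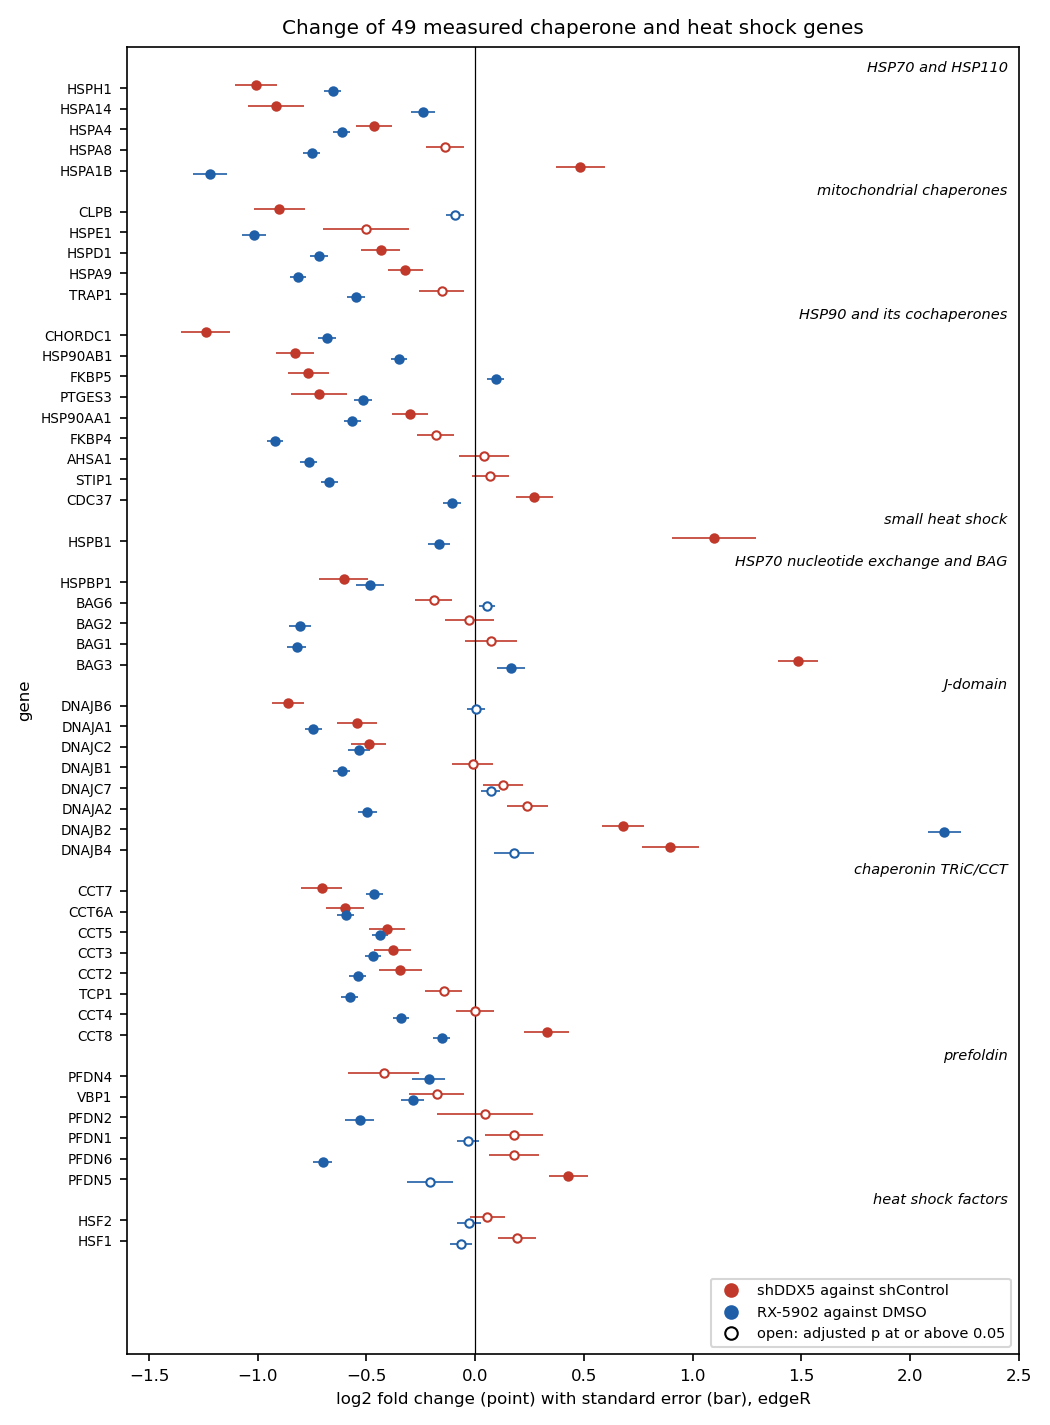
Log2 fold changes (x axis) of the 49 measured genes, grouped by role (y axis), for shDDX5 against shControl (red) and RX-5902 against DMSO (blue), with standard errors as bars and filled points for genes with an adjusted p under 0.05. Most blue points lie left of 0, with DNAJB2 at 2.16, while red points spread to both sides, from CHORDC1 at -1.24 to BAG3 at 1.48.

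In DDX5 knockdown cells the chaperone set shifted downwards but unevenly. Of 49 genes tested, 20 were lower and 8 higher than in shControl, and 21 were not called. HSP90AB1, HSPH1, CHORDC1 and 5 of the 8 TRiC subunits fell, whereas the cochaperone BAG3 and the small heat shock gene HSPB1 rose by more than any other member. The share of all 14463 genes called was 56.7%, with 28.3% lower and 28.4% higher, so the 40.8% lower and 16.3% higher among members are to be read against that. The median log2 fold change was -0.18 over the members and -0.00071 over all genes tested. Summed over the 50 genes, CPM went from 15806 ± 111 in shControl to 12762 ± 726 in shDDX5 (mean ± SD, n = 3), 1.24-fold lower. In bulk RNA, fewer cells expressing a gene and less RNA per cell cannot be told apart. Without shDDX5 replicate 1, 29 members were lower and 10 higher, while 35.7% of all 14916 genes then tested were called in each direction.

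HSP70 and HSP110 genes mostly fell with the shRNA, with 3 of 5 called lower and 1 higher. HSPH1, an HSP110 protein that acts as a nucleotide exchange factor and holds unfolded chains, had 335, 317 and 319 CPM in shControl and 143, 177 and 163 CPM in shDDX5. All 3 shDDX5 libraries lay at about the same distance below all shControl libraries (log2 fold change -1.01, standard error 0.10, adjusted p = 6.89e-05). HSPA4, another HSP110 protein, fell by 0.47 on the log2 scale (adjusted p = 0.00188). HSPA14, an HSP70-like protein of the ribosome-associated complex, had 40.9, 40.5 and 40.2 CPM in shControl and 25.8, 18.1 and 20.5 CPM in shDDX5 (log2 fold change -0.92, standard error 0.13, adjusted p = 0.000482). Its exons share 318 bases with MSANTD7 on the same strand, so reads of the pair may be mixed. HSPA8, the abundant constitutive HSP70, had 1891, 1881 and 1910.0 CPM in shControl and 1819, 1677 and 1669 CPM in shDDX5. Its groups did not overlap but the gap was small, and it was not called (log2 fold change -0.14, standard error 0.088, adjusted p = 0.212). Without shDDX5 replicate 1 it was (-0.18, adjusted p = 0.000826).

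Of the inducible HSP70 pair, HSPA1B went the other way at a low level. It had 5.63, 5.47 and 5.18 CPM in shControl and 7.55, 7.75 and 7.47 CPM in shDDX5 and rose (log2 fold change 0.48, standard error 0.11, adjusted p = 0.00627). Every shDDX5 library was above every shControl library. HSPA1A had 0, 1 and 0 counts in shControl and 0, 0 and 2 in shDDX5, too few to be compared. They lie side by side at chr6:31815543-31817946 and chr6:31827738-31830254 (GRCh38, forward strand) and are nearly identical, with 69.9% of the 100-base windows of the HSPA1A transcript also present in HSPA1B (GENCODE release 29), and none of the HSPA1B windows in HSPA8. How reads that fit both genes were counted is not given in the sources used here, so the levels of both are uncertain.

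J-domain genes split. DNAJB6, which keeps aggregation-prone chains soluble, had 97.0, 95.0 and 98.6 CPM in shControl and 53.5, 53.8 and 52.6 CPM in shDDX5 (log2 fold change -0.86, standard error 0.073, adjusted p = 3.47e-05). The shDDX5 values were nearly alike and lay far below the controls. DNAJA1, a main HSP70 partner for folding, fell (-0.54 (adjusted p = 0.00138)), as did the ribosome-associated DNAJC2 (-0.49 (adjusted p = 0.00108)). DNAJB4 rose, with 8.51, 8.43 and 8.04 CPM in shControl and 17.7, 16.0 and 13 CPM in shDDX5 (log2 fold change 0.90, standard error 0.13, adjusted p = 0.000555), and DNAJB2, a J-domain protein that sends clients to the proteasome, had 14.2, 14.1 and 14.1 CPM in shControl and 24.9, 20.6 and 22.6 CPM in shDDX5 (log2 fold change 0.68, standard error 0.10, adjusted p = 0.000498). In both genes all shDDX5 libraries exceeded all controls. DNAJB1, the J-domain partner of inducible HSP70 and a usual HSF1 target, had 95.2, 97.6 and 98.4 CPM in shControl and 108, 89.9 and 91.0 CPM in shDDX5. Its groups overlapped and it was not called (log2 fold change -0.011, standard error 0.094, adjusted p = 0.936). Neither DNAJA2 at 0.24 (adjusted p = 0.0577) nor DNAJC7 at 0.13 (adjusted p = 0.261) was called, although DNAJA2 was higher without shDDX5 replicate 1 (0.16, adjusted p = 0.00589), without shDDX5 replicate 3 (adjusted p = 0.0343) and with a minimum count of 50 (adjusted p = 0.0316).

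BAG3, which links HSP70 to selective autophagy and is a usual HSF1 target, had 14.9, 17.5 and 16.8 CPM in shControl and 47.5, 44.5 and 45.6 CPM in shDDX5. All shDDX5 libraries lay close together and far above the controls, and the change was a 2.8-fold rise (log2 fold change 1.48, standard error 0.092, adjusted p = 9.42e-06). BAG1, which couples HSP70 to the proteasome, had 92.3, 95.9 and 89.3 CPM in shControl and 116, 87.8 and 88.6 CPM in shDDX5 and was not called (adjusted p = 0.619). The ratio of BAG3 to BAG1 in CPM was 0.161 to 0.188 in shControl and 0.411 to 0.514 in shDDX5. BAG2 at -0.027 (adjusted p = 0.855) and BAG6 at -0.19 (adjusted p = 0.0887) were not called, but both were lower without shDDX5 replicate 1 (BAG2 -0.15, adjusted p = 0.044, and BAG6 -0.16, adjusted p = 0.00389). The exchange factor HSPBP1 fell (-0.60 (adjusted p = 0.00227)). BAG2 exons share 2842 of 6651 bases with RAB23 on the other strand, so its counts are uncertain.

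The HSP90 branch had 5 of 9 genes lower and 1 higher. HSP90AB1 had 2519, 2609 and 2544 CPM in shControl and 1420.3, 1466 and 1433 CPM in shDDX5. Its replicates were tight in both groups and it was 1.78-fold lower (log2 fold change -0.83, standard error 0.085, adjusted p = 9.39e-05). HSP90AA1 had 1165, 1115 and 1129.9 CPM in shControl and 918, 949 and 904 CPM in shDDX5, a smaller fall (log2 fold change -0.30, standard error 0.082, adjusted p = 0.0138) that was no longer called without shControl replicate 1, 2 or 3 (adjusted p = 0.0546, 0.0526 and 0.0551) or without shDDX5 replicate 3 (adjusted p = 0.0575). The ratio of HSP90AA1 to HSP90AB1 in CPM was 0.427 to 0.462 in shControl and 0.631 to 0.648 in shDDX5, without overlap.

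Among HSP90 cochaperones the deepest fall was in CHORDC1, whose product binds HSP90 and NLR-type proteins, with 71.6, 61.7 and 61.7 CPM in shControl and 24.8, 31.2 and 26.5 CPM in shDDX5 (log2 fold change -1.24, standard error 0.11, adjusted p = 5.11e-05). FKBP5, an immunophilin that dampens glucocorticoid receptor activity and is itself a receptor target, had 97.9, 96.5 and 93.9 CPM in shControl and 49.8, 60.3 and 59.3 CPM in shDDX5 (log2 fold change -0.77, standard error 0.095, adjusted p = 0.000251). PTGES3, the p23 cochaperone that holds HSP90 closed, had 581, 535 and 544 CPM in shControl and 404, 313 and 293 CPM in shDDX5 (log2 fold change -0.72, standard error 0.13, adjusted p = 0.00175). In each of these genes the groups did not overlap. CDC37, which brings kinases to HSP90, had 257, 266 and 269.7 CPM in shControl and 344, 301 and 311 CPM in shDDX5 and rose slightly (log2 fold change 0.27, standard error 0.085, adjusted p = 0.0253), a call lost without shControl replicate 1, 2 or 3 (adjusted p = 0.111, 0.103 and 0.0877) and without shDDX5 replicate 3 (adjusted p = 0.0511), with a replicate block (adjusted p = 0.0674) and with no filter on low counts (adjusted p = 0.0665). STIP1, AHSA1 and FKBP4, at 0.070 (adjusted p = 0.497), 0.040 (adjusted p = 0.786) and -0.18 (adjusted p = 0.0987), were not called. FKBP4 was called lower without shDDX5 replicate 1 (-0.24, adjusted p = 7.69e-05) and in 1 fit of all 12 libraries (adjusted p = 0.0491).

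HSPB1, a small heat shock protein that binds unfolding clients without ATP, had 171, 182 and 179.8 CPM in shControl and 516, 298 and 325 CPM in shDDX5. It rose 2.14-fold (log2 fold change 1.10, standard error 0.19, adjusted p = 0.00164), and replicate 1 gave the highest value by far. Without that library the rise was 1.76-fold (0.81, adjusted p = 5.37e-16).

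The chaperonin TRiC is built from 8 different subunits, and its genes did not move in step. CCT7, CCT6A, CCT5, CCT3 and CCT2 fell, with log2 fold changes of -0.71, -0.60, -0.41, -0.38 and -0.34 and adjusted p-values between 0.000379 and 0.0183. The call on CCT2 was lost without any 1 of the shControl libraries, or without shDDX5 replicate 2 or 3 (adjusted p = 0.053 to 0.0771). TCP1, the alpha subunit, had 611, 585 and 604 CPM in shControl and 579, 523 and 525 CPM in shDDX5 and was not called (log2 fold change -0.15, standard error 0.084, adjusted p = 0.172), although without shDDX5 replicate 1 it was (-0.20, adjusted p = 0.000223). CCT4 stood at -0.0014 with overlapping groups. CCT8 was the exception, with 537, 499.9 and 497 CPM in shControl and 725, 612 and 590.0 CPM in shDDX5 and a rise (log2 fold change 0.33, standard error 0.10, adjusted p = 0.0252), a call lost without shControl replicate 1, 2 or 3 (adjusted p = 0.0615, 0.11 and 0.111). Summed over the 8 subunits, CPM went from 4151 ± 64.5 to 3463 ± 281 (mean ± SD, n = 3).

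Of 6 prefoldin genes only PFDN5 was called, higher, with 10.6, 10.4 and 9.77 CPM in shControl and 13.5, 14.1 and 13.7 CPM in shDDX5 (log2 fold change 0.43, standard error 0.091, adjusted p = 0.00411). Its exons share 1048 of 4078 bases with another gene on the same strand, so reads of the pair may be mixed. VBP1, the prefoldin subunit also known as a VHL binding protein, had 48.7, 45.6 and 45.1 CPM in shControl and 49.7, 36.4 and 37.2 CPM in shDDX5, where replicate 1 lay above the controls and replicates 2 and 3 below them (log2 fold change -0.18, standard error 0.13, adjusted p = 0.268). PFDN2 showed the same split more strongly, with 67.6, 69.6 and 71.6 CPM in shControl and 102, 57.7 and 55.3 CPM in shDDX5 (log2 fold change 0.045, standard error 0.22, adjusted p = 0.877). PFDN4 was at -0.42 and not called (adjusted p = 0.0557). With all libraries kept it was called lower with a replicate block (adjusted p = 0.0298) and in 1 fit of all 12 libraries (adjusted p = 0.0229). Without shDDX5 replicate 1 prefoldin read differently, with PFDN2 (-0.30, adjusted p = 1.31e-05), PFDN4 (-0.65, adjusted p = 5.36e-08) and VBP1 (-0.34, adjusted p = 1.55e-05) lower and PFDN5 (0.44, adjusted p = 0.00013) higher.

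Mitochondrial chaperones fell in 3 of 5 cases. HSPD1, the mitochondrial chaperonin HSP60, had 1144, 1054 and 1064 CPM in shControl and 851, 798 and 764 CPM in shDDX5 (log2 fold change -0.43, standard error 0.089, adjusted p = 0.00351). Its lid HSPE1 had 48.8, 50.6 and 57.6 CPM in shControl and 50.2, 32.0 and 28.7 CPM in shDDX5, with replicate 1 inside the control range and the others below it (log2 fold change -0.50, standard error 0.20, adjusted p = 0.058), and without that library it was called (-0.79, adjusted p = 2.43e-11). Their exons share 135 bases head to head on chromosome 2, and HSPE1 has 26 named pseudogenes in the tables, which together held 1.17% as many counts as the gene. HSPA9, the mitochondrial HSP70, had 704, 694 and 748 CPM in shControl and 567, 585 and 565 CPM in shDDX5 (log2 fold change -0.32, standard error 0.081, adjusted p = 0.00955), a call lost without shControl replicate 3 (adjusted p = 0.0564). CLPB, a disaggregase of the intermembrane space studied as a leukemia dependency, had 37.8, 41.6 and 42.1 CPM in shControl and 18.2, 22.6 and 24.2 CPM in shDDX5 (log2 fold change -0.90, standard error 0.12, adjusted p = 0.000332). TRAP1, the mitochondrial HSP90, was at -0.15 (adjusted p = 0.226).

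The heat shock factors showed little change. HSF1 had 64.5, 74.5 and 73.1 CPM in shControl and 84.2, 78.5 and 79.9 CPM in shDDX5. The shDDX5 values were just above the controls without being called (log2 fold change 0.19, standard error 0.087, adjusted p = 0.0898), and without shDDX5 replicate 1 the rise was called (0.16, adjusted p = 0.0136). With all libraries kept, HSF1 was called higher with a minimum count of 50 (adjusted p = 0.0486) and in 1 fit of all 12 libraries (adjusted p = 0.0295). HSF2 had 46.2, 45 and 44.2 CPM in shControl and 49.8, 46.1 and 44.7 CPM in shDDX5 with overlapping groups (log2 fold change 0.055, standard error 0.080, adjusted p = 0.583). Transcript levels do not show whether HSF1 was bound to DNA.

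**Figure D2:**
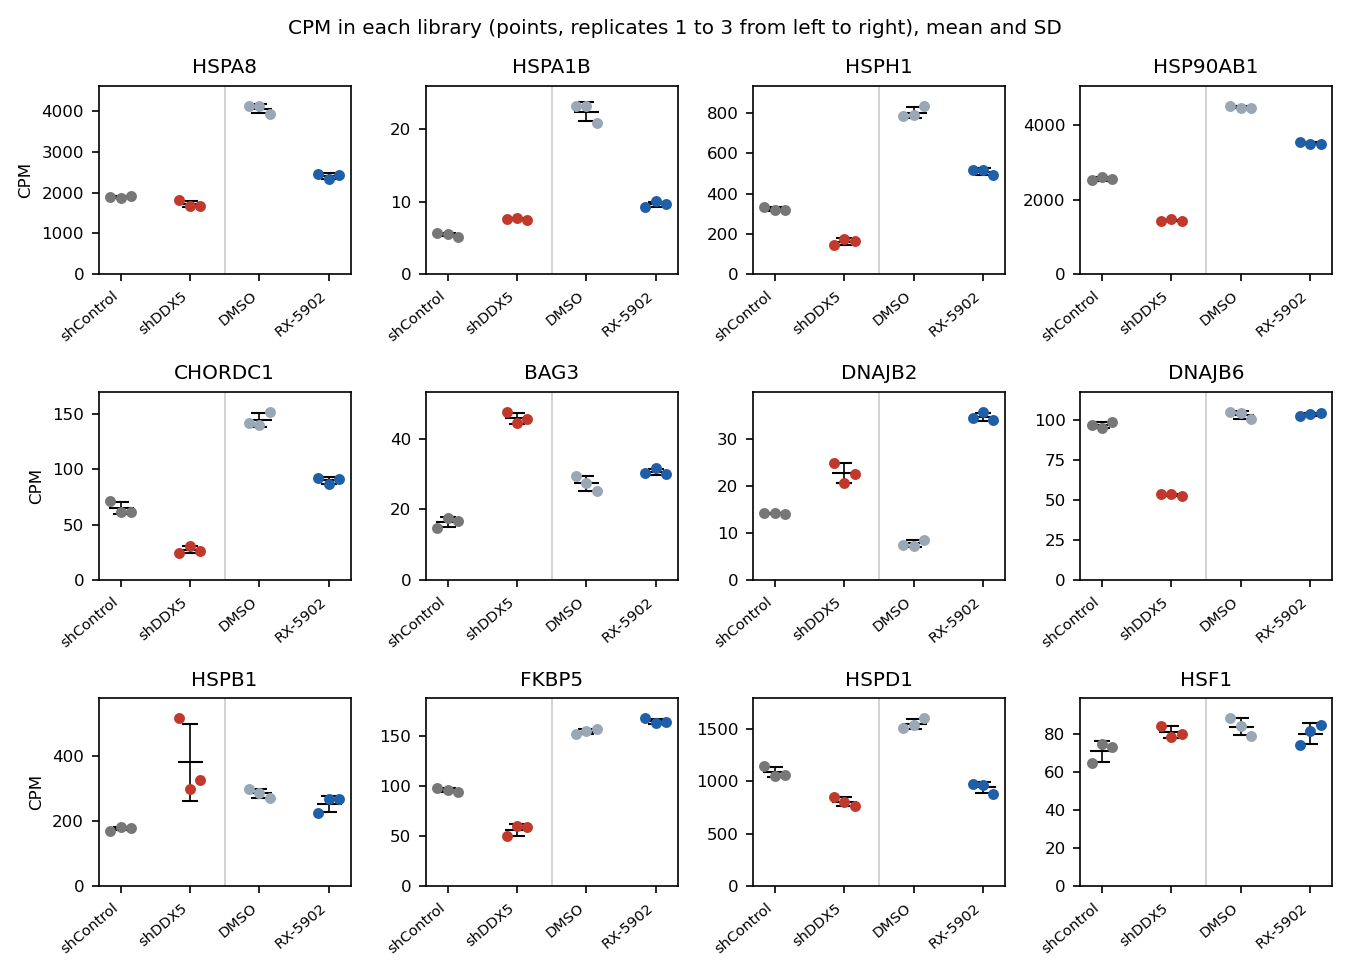
TMM-scaled CPM (y axis, from 0) of 12 genes in each of the 12 libraries (points, replicates 1 to 3 from left to right) with the mean and SD per group, the grey line separating the experiments, which were scaled apart. BAG3 shows its high points at 44.5 to 47.5 CPM in shDDX5, DNAJB2 at 33.9 to 35.6 CPM in RX-5902, and the first shDDX5 point of HSPB1 stands at 516.5 CPM.

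After 6 hours of RX-5902 most of the chaperone set was lower. Of 49 genes tested, 37 were lower than in DMSO, 3 higher and 9 not called. The falls took in every TRiC subunit, every measured HSP70 and HSP110 gene and 8 of 9 genes of the HSP90 branch. DNAJB2 was the one large exception, with a 4.46-fold rise. Over all 13941 genes, 64.1% were called, 31.9% lower and 32.2% higher, against 75.5% lower and 6.12% higher among the members. The median log2 fold change was -0.50 over the members and 0.012 over all genes tested. Summed CPM of the 50 genes went from 25655 ± 47.4 in DMSO to 18032 ± 251 in RX-5902 (mean ± SD, n = 3), 1.42-fold lower.

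HSPA8 had 4119.6, 4125 and 3942 CPM in DMSO and 2464, 2334 and 2438 CPM in RX-5902, a loss of more CPM than in any other member (log2 fold change -0.75, standard error 0.038, adjusted p = 7.66e-18). The RX-5902 libraries lay far below the DMSO libraries. HSPA1B had 23.1, 23.2 and 20.9 CPM in DMSO and 9.21, 10.0 and 9.61 CPM in RX-5902, 2.33-fold lower (log2 fold change -1.22, standard error 0.078, adjusted p = 2.51e-15). HSPA1A had 10, 4 and 5 counts in DMSO and 1, 0 and 3 in RX-5902, too few to be tested. HSPH1 had 784, 789 and 834 CPM in DMSO and 518, 518 and 491 CPM in RX-5902 (log2 fold change -0.66, standard error 0.039, adjusted p = 3.21e-16), and HSPA4 at -0.61 (adjusted p = 1.26e-15) and HSPA14 at -0.24 (adjusted p = 0.000345) fell too. The summed CPM of the HSP70 and HSP110 genes went from 5290 ± 73.5 to 3202 ± 68.6 (mean ± SD, n = 3).

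DNAJB2 had 7.48, 7.23 and 8.57 CPM in DMSO and 34.4, 35.6 and 33.9 CPM in RX-5902. Every RX-5902 library lay far above every DMSO library (log2 fold change 2.16, standard error 0.075, adjusted p = 3.71e-22). The other J-domain genes fell or were not called. DNAJB1 had 177, 178 and 171 CPM in DMSO and 115, 115 and 114 CPM in RX-5902 (log2 fold change -0.61, standard error 0.039, adjusted p = 2.81e-15), and its exons share 525 bases with TECR on the other strand. DNAJA1 (-0.74 (adjusted p = 1.35e-17)), DNAJA2 (-0.50 (adjusted p = 1.32e-11)) and DNAJC2 (-0.54 (adjusted p = 2.64e-11)) fell. DNAJB6 had 105, 105 and 100.5 CPM in DMSO and 102, 104 and 104 CPM in RX-5902, with a standard error of 0.041 around a log2 fold change of 0.0037 (adjusted p = 0.944). DNAJB4 at 0.18 (adjusted p = 0.0871) and DNAJC7 at 0.071 (adjusted p = 0.14) were not called, although DNAJB4 was higher without DMSO replicate 3 or RX-5902 replicate 3 (adjusted p = 0.0117 and 0.0268).

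The BAG proteins parted. BAG1 had 93.6, 97.1 and 98.8 CPM in DMSO and 53.5, 55.5 and 54.8 CPM in RX-5902 (log2 fold change -0.82, standard error 0.045, adjusted p = 4.07e-17), and BAG2, an inhibitor of the ubiquitin ligase STUB1, had 74.5, 70.0 and 77.6 CPM in DMSO and 42.5, 43.2 and 41.4 CPM in RX-5902 (log2 fold change -0.80, standard error 0.050, adjusted p = 1.32e-15). In both genes the groups were well apart. BAG3 had 29.4, 27.5 and 25.3 CPM in DMSO and 30.4, 31.6 and 30.0 CPM in RX-5902, where the lowest RX-5902 value barely exceeded the highest DMSO value (log2 fold change 0.16, standard error 0.063, adjusted p = 0.0218). That small rise was not called without DMSO replicate 2 or 3 or RX-5902 replicate 2 (adjusted p = 0.0706, 0.195 and 0.0961), nor by DESeq2 (adjusted p = 0.147). The ratio of BAG3 to BAG1 in CPM was 0.256 to 0.314 in DMSO and 0.547 to 0.570 in RX-5902. BAG6 was not called (0.055 (adjusted p = 0.197)), and HSPBP1 fell (-0.48 (adjusted p = 8.18e-08)).

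In the HSP90 branch FKBP4, an immunophilin that aids steroid receptors, had 255, 256 and 251 CPM in DMSO and 131, 136 and 135 CPM in RX-5902 (log2 fold change -0.92, standard error 0.038, adjusted p = 3.78e-20). AHSA1, which speeds the HSP90 ATPase, had 246, 268 and 255 CPM in DMSO and 155, 149 and 148 CPM in RX-5902 (log2 fold change -0.77, standard error 0.040, adjusted p = 1.6e-17). STIP1, which joins HSP70 to HSP90, fell by 0.67 on the log2 scale (adjusted p = 5.94e-17). CHORDC1 had 142, 139.9 and 152 CPM in DMSO and 92.1, 86.8 and 91.2 CPM in RX-5902 (log2 fold change -0.68, standard error 0.043, adjusted p = 1.67e-15) and PTGES3 had 723, 726 and 773 CPM in DMSO and 547, 498 and 508 CPM in RX-5902 (log2 fold change -0.52, standard error 0.040, adjusted p = 4.21e-13). The HSP90 genes themselves had smaller log2 fold changes than FKBP4 and AHSA1, a contrast that was not tested. HSP90AA1 had 2742, 2760.3 and 2924 CPM in DMSO and 1999, 1866 and 1829.6 CPM in RX-5902 (log2 fold change -0.57, standard error 0.040, adjusted p = 4.48e-14). HSP90AB1 had 4506, 4469.6 and 4453 CPM in DMSO and 3557, 3486 and 3502 CPM in RX-5902 (log2 fold change -0.35, standard error 0.037, adjusted p = 4.93e-10). The ratio of HSP90AA1 to HSP90AB1 in CPM was 0.608 to 0.656 in DMSO and 0.522 to 0.562 in RX-5902, a move opposite in direction to that with shDDX5.

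FKBP5 and CDC37 were close to their controls. FKBP5 had 152, 155 and 157 CPM in DMSO and 168, 163 and 164 CPM in RX-5902 (log2 fold change 0.095, standard error 0.039, adjusted p = 0.0317), a call lost without either DMSO replicate 1 or 2 or RX-5902 replicate 1 or 2 (adjusted p = 0.0637 to 0.168), by DESeq2 (adjusted p = 0.118) and with a replicate block (adjusted p = 0.0774). CDC37 had 266, 261 and 255 CPM in DMSO and 226, 248 and 252 CPM in RX-5902 (log2 fold change -0.11, standard error 0.041, adjusted p = 0.0233), a call lost without DMSO replicate 1 (adjusted p = 0.0635) and RX-5902 replicate 1 (adjusted p = 0.2). HSPB1 had 297, 287 and 270.2 CPM in DMSO and 225, 267 and 269 CPM in RX-5902 (log2 fold change -0.17, standard error 0.049, adjusted p = 0.00346), where RX-5902 replicate 1 was the lowest library, and the call was lost without it (adjusted p = 0.0734), by DESeq2 on all libraries (adjusted p = 0.107) and in 1 fit of all 12 libraries (adjusted p = 0.549). That joint fit also lost the RX-5902 calls on HSPA14, CDC37, CCT8, PFDN4 and VBP1 (adjusted p = 0.0742 to 0.468).

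All 8 TRiC genes were lower, with log2 fold changes from -0.60 for CCT6A to -0.15 for CCT8. TCP1 had 834, 797 and 827 CPM in DMSO and 563, 560.2 and 525 CPM in RX-5902, without overlap (log2 fold change -0.58, standard error 0.039, adjusted p = 7.84e-15). CCT2 (-0.54), CCT3 (-0.47), CCT7 (-0.47), CCT5 (-0.44) and CCT4 (-0.34) lay between, and the adjusted p-values of the 8 genes ran from 3.08e-15 to 0.0007. The summed CPM of the chaperonin went from 5801 ± 25.3 to 4240 ± 62.4 (mean ± SD, n = 3). Prefoldin followed in 4 of 6 genes. PFDN6 fell most (-0.70 (adjusted p = 2.55e-15)), with exons that share 724 bases with RGL2 on the other strand, then PFDN2 (-0.53 (adjusted p = 1.37e-08)). VBP1 had 56.0, 56.9 and 63.2 CPM in DMSO and 50.9, 47.8 and 45.5 CPM in RX-5902 (log2 fold change -0.29, standard error 0.054, adjusted p = 2.15e-05). PFDN4 was called at -0.21 (adjusted p = 0.015) but not without DMSO replicate 1 (adjusted p = 0.0771) or RX-5902 replicate 3 (adjusted p = 0.107), nor by DESeq2 (adjusted p = 0.0686). PFDN1 and PFDN5 were not called (adjusted p = 0.596 and 0.0819).

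Mitochondrial chaperones fell as a group apart from CLPB. HSPE1 had 60.6, 66.4 and 68.4 CPM in DMSO and 30.8, 33.6 and 32.2 CPM in RX-5902, 2.02-fold lower (log2 fold change -1.02, standard error 0.055, adjusted p = 3.66e-17). HSPD1 had 1508, 1534 and 1603 CPM in DMSO and 978, 963 and 884 CPM in RX-5902 (log2 fold change -0.72, standard error 0.041, adjusted p = 1.22e-16), so both parts of the chaperonin fell. HSPA9 had 747, 753 and 767 CPM in DMSO and 442, 423 and 424 CPM in RX-5902 (log2 fold change -0.81, standard error 0.037, adjusted p = 3.86e-19), and TRAP1 fell by 0.55 on the log2 scale (adjusted p = 5.48e-13), with 1477 of its 5183 exon bases shared with DNASE1 on the other strand. CLPB had 93.1, 94.5 and 91.0 CPM in DMSO and 84.0, 87.5 and 89.6 CPM in RX-5902. Its groups did not overlap but the step was small and not called (log2 fold change -0.093, standard error 0.043, adjusted p = 0.0563), except without DMSO replicate 3 or RX-5902 replicate 3 and with RLE scaling (adjusted p = 0.0177, 0.0443 and 0.0432). The summed CPM of these 5 genes went from 2611 ± 56.7 to 1592 ± 54.8 (mean ± SD, n = 3).

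Neither HSF1 nor HSF2 was called with RX-5902. HSF1 had 88.2, 84.2 and 78.9 CPM in DMSO and 73.9, 81.3 and 84.7 CPM in RX-5902 and HSF2 had 43.7, 48.8 and 50.7 CPM in DMSO and 49.1, 46.9 and 44.5 CPM in RX-5902, with overlapping groups in both. Their log2 fold changes were -0.066 (standard error 0.050, adjusted p = 0.246) and -0.028 (standard error 0.056, adjusted p = 0.683). Without DMSO replicate 3, HSF1 was called lower (adjusted p = 0.0394).

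**Figure D3:**
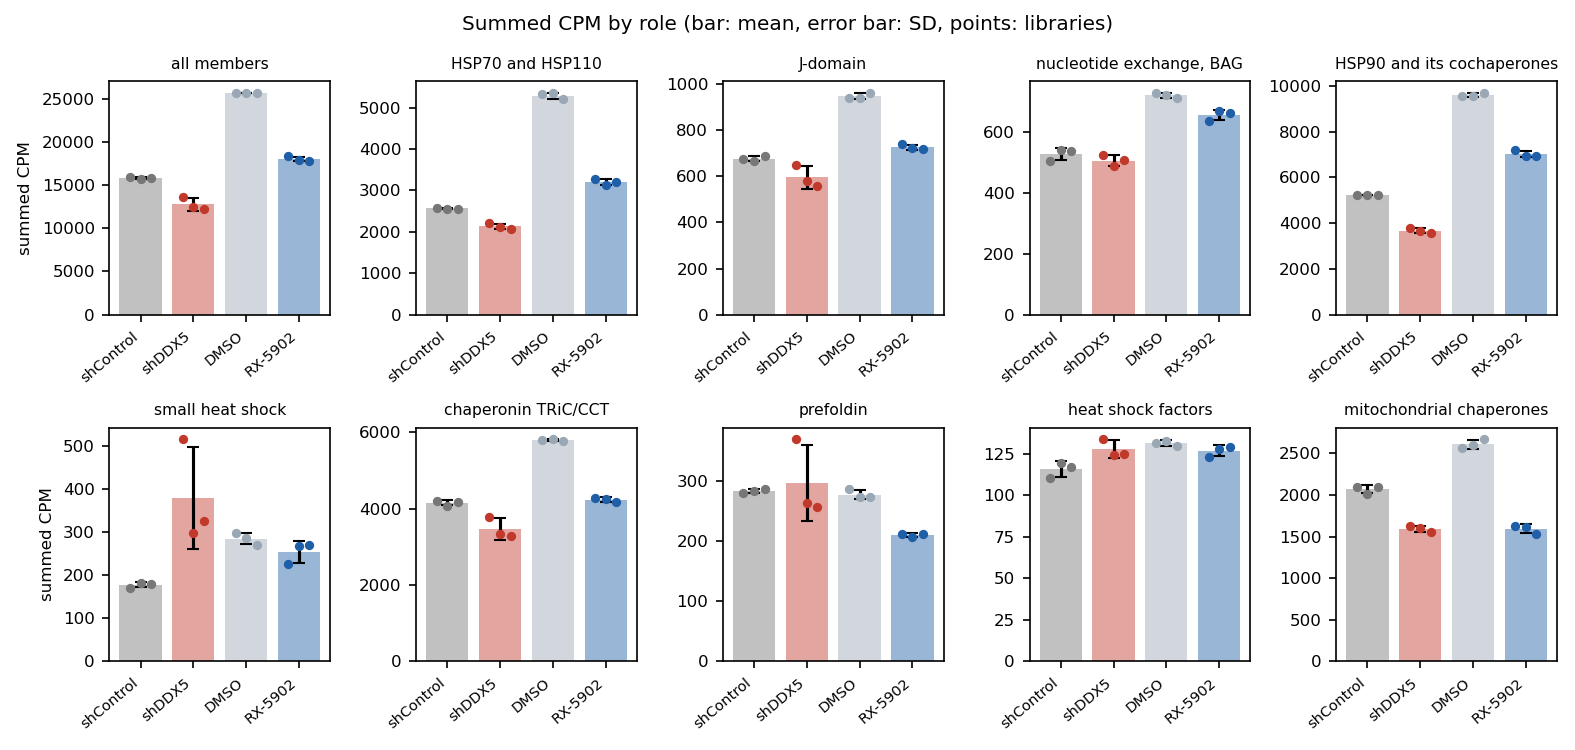
Summed CPM (y axis, from 0) by role group for all 50 genes and 9 role groups, with bars for the mean of 3 libraries, error bars for the SD and points for the libraries, each experiment on its own scaling. The sum over all 50 genes falls from 15806 to 12762 with shDDX5 and from 25655 to 18032 with RX-5902, while the heat shock factor bars differ little.

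Set side by side, 3 of 5 HSP70 and HSP110 genes, 4 of 9 genes of the HSP90 branch and 5 of 8 TRiC genes were called lower with both agents, while BAG3, DNAJB2, HSPA1B, HSPB1 and FKBP5 stood out by moving far more in 1 experiment or in opposite directions. The difference between both changes was tested over all 12 libraries, as the change with shDDX5 minus the change with RX-5902. It was called in 31 of 49 members, 22 of them above 0 and 9 below, whereas over all 15386 genes 52.7% were called, 24.1% above 0 and 28.6% below. Joint calls were not counted over all genes, so the joint counts of members given here have no background share beside them. Taken singly, 28.3% of all genes tested were lower with shDDX5 and 31.9% with RX-5902. Of the members, 17 were called lower in both experiments, and in 10 of these the difference was not called, among them HSPA4, DNAJA1, DNAJC2, PTGES3 and 5 TRiC subunits. A missed threshold does not show that such changes were equal, and without shDDX5 replicate 1 the difference was called in HSPA4, PTGES3 and CCT7 of these 10. BAG3 and DNAJB2 were called higher in both, the BAG3 call with RX-5902 being the unstable one described above. HSPA1B, HSPB1, CDC37 and CCT8 were called higher with shDDX5 and lower with RX-5902, and FKBP5 the reverse. Of these 5, HSPA1B kept both calls under every alternative that tested it. Under the alternatives given above, CDC37 and CCT8 lost both of their calls, and HSPB1 and FKBP5 lost those with RX-5902. DNAJB4 and PFDN5 were called higher, and DNAJB6 and CLPB lower, with shDDX5 alone, and the difference was called in each. A further 16 were called lower with RX-5902 alone and 12 of these differed. Without shDDX5 replicate 1, 8 of the 16 were lower with shDDX5 as well (HSPA8, HSPE1, BAG2, FKBP4, TCP1, PFDN2, PFDN4 and VBP1) and DNAJA2 was higher. DNAJC7, BAG6, PFDN1, HSF1 and HSF2 were called in neither, with BAG6 and HSF1 called without that library as given above.

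HSPA1B differed most, with a log2 difference of 1.69 (standard error 0.12, adjusted p = 7.3e-08). HSPA1B made up 0.271 to 0.297% as many CPM as HSPA8 in shControl and 0.415 to 0.462% in shDDX5, but 0.529 to 0.562% in DMSO and 0.374 to 0.429% in RX-5902. The share moved up with the shRNA and down with the compound. DNAJB2 differed by -1.49 (adjusted p = 3.15e-07), since it rose in both but far more with the compound, and BAG3 by 1.30 (adjusted p = 4.35e-07), since its rise was large with the shRNA only. DNAJB6 differed by -0.88 (adjusted p = 4.41e-07) and FKBP5 by -0.88 (adjusted p = 2.79e-06), both lower with the shRNA. CLPB followed with -0.83 (adjusted p = 3.98e-05), HSP90AB1 with -0.50 (adjusted p = 0.000255) and CHORDC1 with -0.58 (adjusted p = 0.000852). In the other direction BAG1, PFDN6, AHSA1, BAG2, STIP1, FKBP4 and DNAJA2 had differences between 0.72 and 0.88, as they fell with RX-5902 and were not called with shDDX5 on all libraries.

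**Figure D4:**
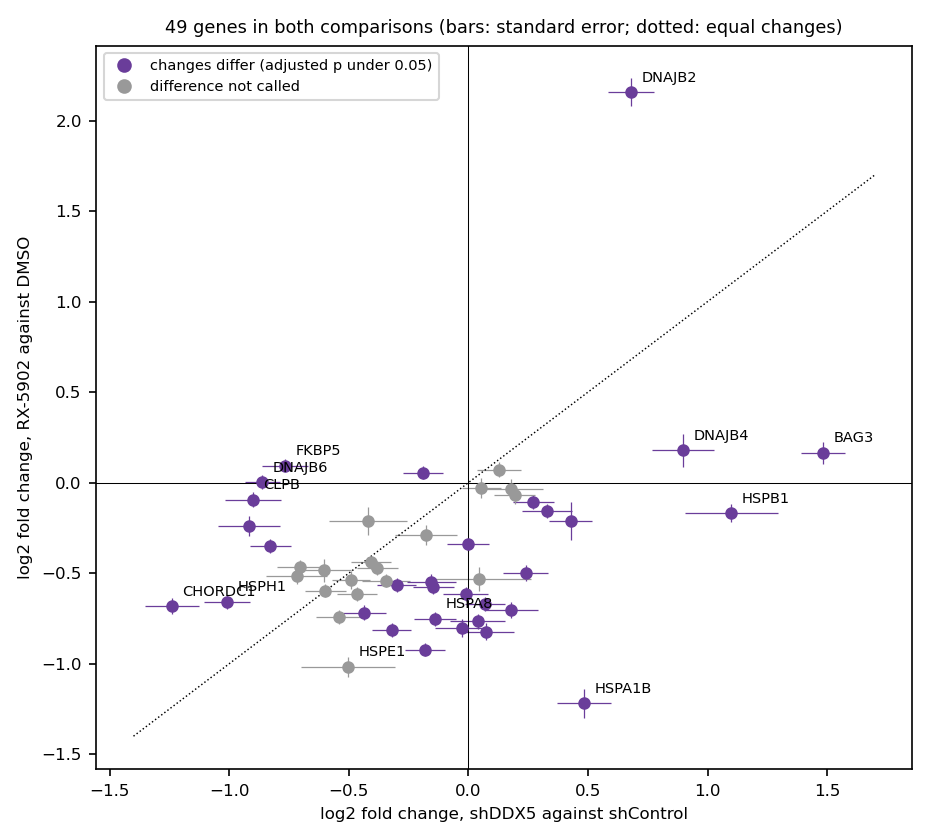
Log2 fold change with shDDX5 (x axis) against that with RX-5902 (y axis) for the 49 genes, bars for standard errors and purple for genes whose changes differed at an adjusted p under 0.05. DNAJB2 at 0.68 and 2.16, BAG3 at 1.48 and 0.16 and HSPA1B at 0.48 and -1.22 lie farthest from the dotted line of equal changes.

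Genes outside the 50 that work with them were read from 9 further lists holding 102 genes, against the background shares given above. Among 14 measured heat-inducible and HSF1-driven genes, 6 rose and 4 fell with shDDX5. ZFAND2A, a proteasome-linked stress gene (1.34, adjusted p = 1.04e-05), and SERPINH1, the collagen chaperone of the endoplasmic reticulum (1.25, adjusted p = 2.14e-05), rose. HSPA6, a strictly inducible HSP70 (-1.68, adjusted p = 0.00609), SLC5A3, the myo-inositol transporter (-1.59, adjusted p = 0.000619), and USPL1 (-0.72, adjusted p = 0.00018) fell. With RX-5902, 4 of 15 rose, among them IER5 (0.62, adjusted p = 6.7e-13) and SLC5A3 (0.60, adjusted p = 6.72e-11), and 6 fell, SERPINH1 among the latter (-0.63, adjusted p = 6.37e-14) together with CACYBP (-0.72, adjusted p = 6.71e-16). Of 12 other J-domain genes, 2 rose and 4 fell with shDDX5 and 4 rose and 4 fell with RX-5902. DNAJB5 rose in both (1.95, adjusted p = 4.14e-06, and 1.23, adjusted p = 1.12e-06), and the histone chaperone DNAJC9 fell with shDDX5 (-1.64, adjusted p = 6.86e-06).

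Other HSP70 cofactors gave 4 higher and 3 lower of 11 with shDDX5, and 0 higher and 4 lower of 9 with RX-5902, where BAG5 fell (-0.40, adjusted p = 7.42e-09). Other HSP90 cochaperones with the R2TP complex gave 6 higher and 6 lower of 20 with shDDX5, and 4 higher and 10 lower of 20 with RX-5902. RUVBL1, an ATPase of that complex, fell with RX-5902 (-1.06, adjusted p = 2.88e-21) and with shDDX5 (-0.49, adjusted p = 0.00154). Chaperonin assistants and tubulin folding genes gave 1 higher and 2 lower of 9, then 2 higher and 4 lower of 9. Mitochondrial chaperone partners gave 2 higher and 5 lower of 10, then 0 higher and 7 lower of 10. The counts of 0 higher with RX-5902 were by edgeR, with 1 HSP70 cofactor and 0 mitochondrial partners at an unadjusted p under 0.05 and 0 in both lists by DESeq2. GRPEL1, the nucleotide exchange factor of HSPA9, fell with both (-0.53, adjusted p = 0.00358, and -0.98, adjusted p = 2.62e-18), and the mitochondrial J-domain protein DNAJA3 fell with RX-5902 (-0.82, adjusted p = 3.88e-18).

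Other heat shock factors and HSF binding proteins gave no call among 4 genes with shDDX5 by edgeR (0 at an unadjusted p under 0.05, 0 by DESeq2) and 2 lower of 4 with RX-5902, including HSBP1, an HSF1 trimer antagonist (-0.40, adjusted p = 5.62e-06). Beside FKBP5, the glucocorticoid receptor with its targets gave 3 higher and 3 lower of 6 with shDDX5 and 4 higher and 1 lower of 6 with RX-5902. TSC22D3, a steroid-induced gene, rose in both (1.75, adjusted p = 1.06e-05, and 1.75, adjusted p = 2.36e-16) while FKBP5 fell in the first and was only slightly higher in the second, at the unstable call given above. Of 6 other small heat shock genes only HSPB7 was measured with shDDX5 (1.14, adjusted p = 0.000955), and none with RX-5902. In the test of the difference 1 gene of this list was measured, at -0.41, and not called. No rise on this list is thus shown to be particular to shDDX5. Without shDDX5 replicate 1 the counts lower with shDDX5 became 10 of 20 for the HSP90 cochaperones with R2TP, 6 of 9 for the chaperonin assistants and 1 of 4 for the other heat shock factors.

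shDDX5 replicate 1 bore unequally on the members. Over 49 genes its log2 CPM (with 1 CPM added) exceeded the mean of replicates 2 and 3 by a median of 0.17, with 36 above 0. The excess had a median of 0.35 over the 16 genes with under 3000 exon bases (14 above 0) and 0.14 over the 33 longer genes (22 above 0). Prefoldin genes stood highest (median 0.45, 5 of 6 above 0), and all 8 TRiC genes were above 0. The HSP70 and HSP110 genes did not share this, with a median of -0.0092 and 2 of 5 above 0. In HSPB1, PFDN2, PFDN4 and HSPE1 this library lay well above replicates 2 and 3, which were close to each other. The excess was not computed over all genes, so it is not shown to be particular to any role. Prefoldin genes other than PFDN5 all had under 3000 exon bases, so role and length are not separated there. The cause of the difference of this library was not tested.

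**Figure D5:**
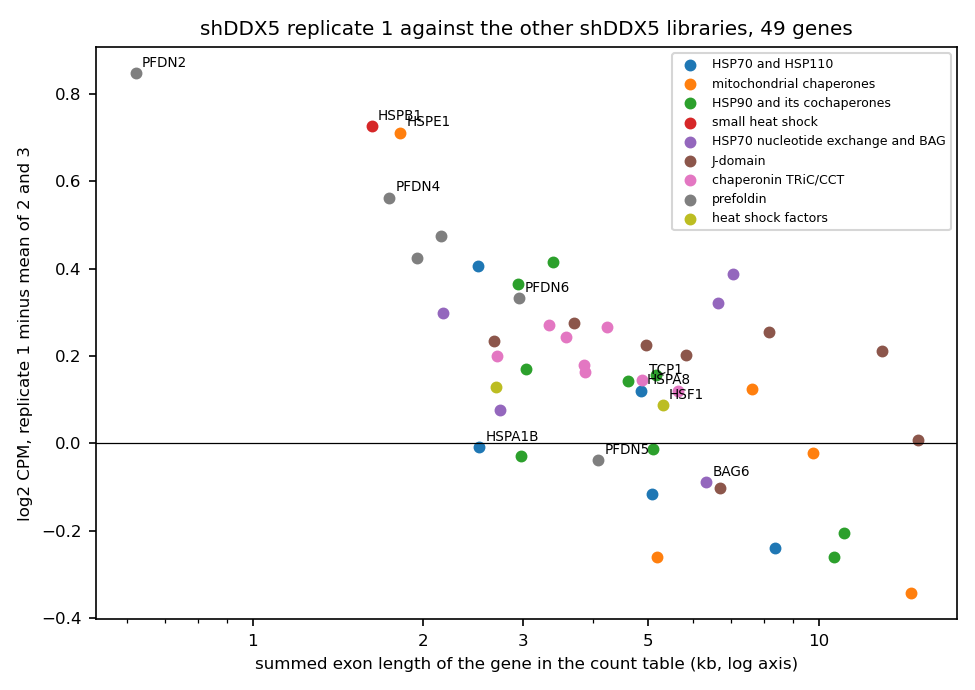
Difference in log2 CPM between shDDX5 replicate 1 and the mean of shDDX5 replicates 2 and 3 (y axis) against summed exon length in kb (x axis, log scale) for the 49 genes, coloured by role. Genes with short exon length such as PFDN2, HSPB1 and HSPE1 sit highest, and HSPA1B lies near 0.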

How the data were processed

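The members, role groups and further lists were chosen with earlier results of these data known. The labels' protocols give Trizol extraction, RNeasy purification with DNase, and the MGIEasy Fast RNA library kit. The authors deposited whole-number read counts per gene, not normalized, in 1 table per experiment. The build was GRCh38.p13 and the tools were STAR 2.7.9a, featureCounts of Subread 2.0.3, Trim Galore 0.6.7, Picard 2.8.0, DESeq2 1.46.0 and R 4.4.2, per the submitters' processing notes. The annotation release, strand setting and treatment of multi-mapping reads are not given in the sources used here, so members with overlapping or near-identical genes are uncertain.

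Each table held 61906 genes, after 1 record wrapped over 3 lines was rejoined. Symbols matched 59984 genes by versioned identifier and 1819 without the version, and 103 had none. HSPB11 of the small heat shock list had no match. Each experiment was fitted on its 6 libraries with edgeR 4.0.16 in R 4.3.3 (default expression filter with a minimum count of 10, TMM scaling, quasi-likelihood F test, two-sided), and the difference on all 12 with 4 group means. Calls required an adjusted p under 0.05 (Benjamini-Hochberg, across every gene in the fit), and standard errors came from the F statistic. CPM is TMM-scaled, and TPM used the deposited lengths. The fits were also run on simulated data in which far fewer genes changed and no library stood apart. That run does not vouch for the error rates in these data. Depth of 17603589 to 20367575 counts limits HSPA1A, with at most 10 counts per library.

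Every member was described. Values in every library were given for 14 fixed genes, for up to 8 called members per direction with the largest change in each comparison, and for up to 5 by the difference. From each of the 9 further lists up to 3 called genes per direction could be named. Alternatives were DESeq2 1.42.0, its size factors (RLE scaling), no filter, a minimum count of 50, leaving out each library, a replicate block, HSPA1A and HSPA1B summed, and 1 fit of all 12 libraries.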

Additional observations from a re-analysis of the deposited data

Results flagged for a closer look

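Across the members, 31 of 49 had a change with shDDX5 that differed from the change with RX-5902 when the difference itself was tested (edgeR, all 12 libraries, adjusted p under 0.05). No group of 3 libraries was searched for single outlying values. Differences are given in log2 units, as the shDDX5 change minus the RX-5902 change, with no explanation weighed.

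Above 0 were 22 genes. The HSP70 group held HSPA1B at 1.69 and HSPA8 at 0.60. Among J-domain genes, DNAJA2 was at 0.72, DNAJB4 at 0.70 and DNAJB1 at 0.59. The BAG genes were BAG3 at 1.30, BAG1 at 0.88 and BAG2 at 0.76. The HSP90 branch held AHSA1 at 0.79, STIP1 at 0.72, FKBP4 at 0.72, CDC37 at 0.36 and HSP90AA1 at 0.25. HSPB1 was at 1.25. The TRiC subunits were CCT8 at 0.47, TCP1 at 0.41 and CCT4 at 0.32, and the prefoldin subunits PFDN6 at 0.86 and PFDN5 at 0.62. Mitochondrial chaperones were HSPA9 at 0.48, TRAP1 at 0.37 and HSPD1 at 0.27.

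Below 0 were 9 genes. They were DNAJB2 at -1.49, DNAJB6 at -0.88, FKBP5 at -0.88, CLPB at -0.83, HSPA14 at -0.69, CHORDC1 at -0.58, HSP90AB1 at -0.50, HSPH1 at -0.37 and BAG6 at -0.26. The calls on HSPD1, HSP90AA1 and BAG6 were the weakest, with adjusted p-values of 0.0416, 0.035 and 0.023. Each was lost without shControl replicate 2 or shControl replicate 3 (adjusted p = 0.0762 and 0.0719 for HSPD1, 0.0627 and 0.055 for HSP90AA1, 0.0818 and 0.0885 for BAG6), and without some compound libraries as well. With all libraries kept, each was lost with no filter on low counts (adjusted p = 0.0819, 0.108 and 0.0988, in the same order). Each was also lost with a replicate block (adjusted p = 0.0707, 0.0891 and 0.0566).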

How the results depend on the processing

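Most counts of called members stayed within 1.5 times of the reported ones under DESeq2, RLE scaling, no filter, a minimum count of 50, single fits of 12 libraries and each left-out library. The exception was the count of members higher with RX-5902. It was 3 as reported, 1 with DESeq2, 1 with no filter on low counts, 1 with 1 fit of all 12 libraries, and 1 to 4 when a library was left out, as the calls on BAG3 and FKBP5 were lost and one on DNAJB4 was gained without DMSO replicate 3 or RX-5902 replicate 3. PFDN2 with shDDX5 went from 0.045 to -0.30 (log2, adjusted p = 1.31e-05) without shDDX5 replicate 1, and ranged up to 0.21 when another library was left out. Members never changing their call numbered 33 of 49 with shDDX5, 38 of 49 with RX-5902 and 38 of 49 for the difference. Deviations of same-numbered libraries from their group means correlated at -0.055, -0.12 and 0.054 in the knockdown and at -0.087, 0.019 and -0.11 in the compound experiment. With 3 libraries per group and shDDX5 replicate 1 standing apart, these values cannot decide whether replicate numbers marked a shared batch. With a replicate block, 7 members were higher and 21 lower with shDDX5, 2 and 37 with RX-5902, and 20 and 8 for the difference, and context genes of the HSF1 list above 0 for the difference went from 5 to 3. Low counts limit HSPA1A, and a single cell line, a single shRNA and 3 libraries per group limit the rest.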
